A study of Mus musculus with 64 samples.

Results

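White adipose tissue (WAT) of 8 male mice labelled KO was compared between a high-sucrose diet (HSD, 4 libraries) and chow (4 libraries). These 8 libraries were chosen by their tissue, genotype and diet labels, out of 64 libraries of 4 tissues in the series. The labelled-KO mice are described as Pklr-/- mutants and the CTRL mice as wild type, all male C57BL/6J, and a further 8 WAT libraries came from CTRL mice on HSD (4) and chow (4). All mice ate chow until 8 weeks of age, stayed on chow or took HSD for another 8 weeks, and were killed at 16 weeks. The labels name neither the fat depot nor how the Pklr allele was made, and give no hour of sampling. They describe 4 mice for each diet and genotype, so each library was taken as 1 mouse. The title of the series concerns drugs against PKLR for non-alcoholic fatty liver disease. The comparison asks how fat of the labelled-KO mice differed between the 2 diets.

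White fat stores triglyceride in adipocytes, takes up glucose through the insulin-regulated transporter GLUT4 and can make fatty acids from sugar, a pathway whose genes SREBP-1c and ChREBP switch on. Adipocytes sit in a matrix of collagens made largely by fibroblast-like stromal cells and adipocytes, which is remodelled as the fat pad grows. Fat cells also keep a circadian clock, in which BMAL1 (encoded by Arntl) with CLOCK or NPAS2 activates genes through E-boxes, the PER, CRY and DEC proteins repress that activity, REV-ERB proteins repress and ROR proteins activate Arntl, and DBP, TEF and HLF act on output genes through D-boxes.

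Total estimated counts were 7680283 to 8941825 in the 4 HSD libraries and 5724366 to 8666467 in the 4 chow libraries, and every gene level below is the deposited TPM (transcript abundance scaled for length and library total). The tissue label held against its markers, with Adipoq (adiponectin) at 5407, 4525, 5429 and 4223 TPM on HSD and 4248, 4629.9, 5116 and 4853 TPM on chow. Markers of epididymal epithelium were low, with Lcn5, Lcn8, Cst11 and Pate4 at 0 in all 8 libraries, and their summed levels were 2.73 to 31 TPM in the HSD libraries and 5.19 to 12.4 TPM in the chow libraries. Pklr itself (GRCm38 chromosome 3, 89136142 to 89146784), the pyruvate kinase of liver and red blood cells, was low in this tissue, at 0.0555, 5.03, 0.963 and 0 TPM in the HSD libraries, against 0.0837, 0.0645, 0.869 and 0.0568 TPM in the chow libraries. These levels overlapped and are too low in fat to check the genotype label. Pklr had a log2 fold change of 1.56 ± 1.22 in edgeR (adjusted p = 0.481). In liver, where the gene is abundant, the level went against that label. Pklr was at 314, 416, 459 and 432 TPM in labelled-KO HSD livers, against 263, 216, 217 and 154 TPM in CTRL HSD livers, and at 246, 268, 187 and 147 TPM in labelled-KO chow livers, against 61.6, 139, 141 and 110.3 TPM in CTRL chow livers. Every labelled-KO liver lay above every CTRL liver of its diet (exact two-sided permutation p = 0.0286 in each diet, the smallest that 4 against 4 can give). Whether the labels are right cannot be told from this level, so the groups are called by their labels and each direction between genotypes follows them as deposited. Pkm (GRCm38 chromosome 9, 59656368 to 59679375), the isoform that most tissues outside liver use, was at 283, 226, 236 and 371 TPM in the HSD libraries, against 289, 287, 208 and 232 TPM in the chow libraries, which also overlapped. Pkm had a log2 fold change of 0.27 ± 0.18 in edgeR (adjusted p = 0.404).

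Of 13255 genes tested with edgeR's quasi-likelihood test, 358 rose (2.70%) and 488 fell (3.68%) on HSD at an adjusted p (Benjamini-Hochberg) under 0.05, and errors of log2 fold changes are standard errors. The median log2 fold change over all genes tested was 0.0041. On log2(TPM + 1) limma gave a median of -0.11 with 156 rises and 963 falls, so fold changes here are those of the normalised counts, and changes on the TPM scale are relative to that shift. TPM ranges of the 2 groups did not overlap for 309 genes that were higher on HSD (2.33%) and 1792 that were lower (13.5%). Reads of genes with overlapping exons cannot be told apart if strand was not used in counting, which is not stated. Among genes named below this touches Nr1d1, Dbp, Slc5a6, Cdc20, Prc1, Ube2c, Ccna2, Mfap4, Loxl3, Pcolce, Fkbp10, Srebf1, Fdft1, Pfkp, Pfkfb1, Echs1, Ndufs1, mt-Nd6, mt-Atp8, Mest, Ciita, H2-DMa, Adamts4, Pdia6, Cryab, Cfb and Pklr. Of these Pcolce, mt-Atp8 and Cfb overlap a gene on the same strand, where using strand would not separate the reads. With 1 library left out in turn, the count of calls ran from 358 without HSD replicate 3 to 992 without chow replicate 3, and 281 of the 846 calls held in all 8 of these fits. Calls also fell to 502 without chow replicate 1, 360 without chow replicate 2, 526 without chow replicate 4 and 477 without HSD replicate 4.

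Core clock genes changed on HSD, with Arntl, Npas2 and Clock lower and most repressors and output factors higher. Of 20 clock genes tested, 11 rose and 4 fell on HSD, with a median log2 fold change of 1.04 beside 0.0041 over all genes, where 2.70% rose and 3.68% fell. Among the activators, Arntl (GRCm38 chromosome 7, 113207465 to 113314126) was at 3.36, 2.63, 2.23 and 1.67 TPM in the HSD libraries, against 13.7, 15.6, 9.3 and 7.7 TPM in the chow libraries. All 4 HSD libraries lay below all 4 chow libraries. Arntl had a log2 fold change of -2.09 ± 0.26 in edgeR (adjusted p = 0.000432). Npas2, a partner of BMAL1 that can stand in for CLOCK, was at 0.71, 1.02, 0.469 and 0.18 TPM in the HSD libraries, against 3.21, 3.01, 2.03 and 2.65 TPM in the chow libraries, again without overlap. Npas2 had a log2 fold change of -1.93 ± 0.39 in edgeR (adjusted p = 0.00817). Clock was at 6.73, 7.1, 7.58 and 8.03 TPM in the HSD libraries, against 11.3, 11.8, 11.4 and 10.3 TPM in the chow libraries, a smaller fall with no overlap. Clock had a log2 fold change of -0.50 ± 0.13 in edgeR (adjusted p = 0.0346). Of the ROR activators, Rorb, near 0 in every library, rose by 2.22 ± 0.63, and Rora was at 0.53 ± 0.17 (adjusted p = 0.0754).

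The 3 activating output factors all rose. Dbp (GRCm38 chromosome 7, 45705088 to 45710203) was at 118, 91.1, 86 and 64.1 TPM in the HSD libraries, against 12.4, 7.02, 17.5 and 23.5 TPM in the chow libraries, and the lowest HSD library lay well above the highest chow library. Dbp had a log2 fold change of 2.68 ± 0.43 in edgeR (adjusted p = 0.00276). Tef was at 85.2, 95, 84.6 and 78.3 TPM in the HSD libraries, against 31.3, 33, 49.9 and 44.8 TPM in the chow libraries, without overlap. Tef had a log2 fold change of 1.29 ± 0.18 in edgeR (adjusted p = 0.000924). Hlf was at 5.0, 6.45, 5.28 and 6.39 TPM in the HSD libraries, against 1.51, 1.15, 1.66 and 1.49 TPM in the chow libraries, without overlap and with little spread within each diet. Hlf had a log2 fold change of 2.10 ± 0.21 in edgeR (adjusted p = 0.000115). Nfil3, the repressor that competes with them for D-boxes, moved the other way, at 3.31, 3.9, 1.84 and 2.41 TPM in the HSD libraries, against 6.19, 7.33, 5.11 and 4.92 TPM in the chow libraries, without overlap. Nfil3 had a log2 fold change of -0.92 ± 0.24 in edgeR (adjusted p = 0.0312).

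Of 10 repressor genes, 6 rose and none fell, and the median was 1.04. Ciart (GRCm38 chromosome 3, 95878503 to 95882251), a repressor of BMAL1-CLOCK, was at 16.5, 9.71, 32.6 and 23.9 TPM in the HSD libraries, against 1.3, 0.421, 6.1 and 5.13 TPM in the chow libraries, and every HSD library was above every chow library. Ciart had a log2 fold change of 3.13 ± 0.61 in edgeR (adjusted p = 0.00752). Bhlhe41 (DEC2; GRCm38 chromosome 6, 145858243 to 145865558) was at 18.9, 12.2, 15.1 and 12.9 TPM in the HSD libraries, against 5.86, 4.3, 3.78 and 5.56 TPM in the chow libraries, without overlap. Bhlhe41 had a log2 fold change of 1.81 ± 0.36 in edgeR (adjusted p = 0.00824). Its relative Bhlhe40 (DEC1) rose by 1.19 ± 0.28. Nr1d2 (REV-ERB beta) was at 37, 46.9, 39.2 and 41.5 TPM in the HSD libraries, against 17.2, 16.2, 29.4 and 22.2 TPM in the chow libraries, without overlap. Nr1d2 had a log2 fold change of 1.10 ± 0.18 in edgeR (adjusted p = 0.00233). Nr1d1 (REV-ERB alpha) rose by 0.73 ± 0.17. Per3 (GRCm38 chromosome 4, 151003652 to 151044665) was at 8.7, 13.4, 10.6 and 13.4 TPM in the HSD libraries, against 2.52, 4.29, 7.38 and 6.52 TPM in the chow libraries, without overlap. Per3 had a log2 fold change of 1.29 ± 0.28 in edgeR (adjusted p = 0.0135). The other period genes were split within the chow group. Per2 was at 13.4, 14.8, 13.8 and 12.7 TPM in the HSD libraries, against 1.99, 3.04, 12.2 and 13.6 TPM in the chow libraries, so that chow replicates 3 and 4 reached the HSD levels and chow replicates 1 and 2 did not. Per2 had a log2 fold change of 0.98 ± 0.41 in edgeR (adjusted p = 0.168). Per1 showed the same split, at 45.8, 35.6, 56.7 and 39.6 TPM in the HSD libraries, against 16.6, 18.4, 52.7 and 50.5 TPM in the chow libraries. Per1 had a log2 fold change of 0.52 ± 0.33 in edgeR (adjusted p = 0.372). Cry1 (0.08 ± 0.19) and Cry2 (0.22 ± 0.10) had adjusted p of 0.847 and 0.204.

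The calls of Arntl, Npas2, Dbp, Tef, Hlf, Nr1d2, Ciart and Bhlhe41 held without any 1 of the 8 libraries. Per3 lost its call without chow replicate 2 (adjusted p up to 0.0518). Nr1d1 lost its call without chow replicate 2 or HSD replicate 3 (adjusted p up to 0.0621). Bhlhe40 lost its call without chow replicate 2 or HSD replicate 4 (adjusted p up to 0.0679). Clock lost its call without chow replicate 1 or 2 or HSD replicate 1 or 2 or 3 (adjusted p up to 0.0939). Nfil3 lost its call without chow replicate 1 or 2 or HSD replicate 3 or 4 (adjusted p up to 0.108). Rorb lost its call without chow replicate 1 or 2 or 4 or HSD replicate 1 or 2 or 3 or 4 (adjusted p up to 0.129). A clock score was taken as the mean log2 CPM of 6 genes (Hlf, Tef, Dbp, Ciart, Per3, Per2) less the mean of Clock, Npas2 and Arntl. It was 2.53, 2.48, 2.85 and 3.38 in the HSD libraries and -1.60, -1.65, 0.046 and 0.080 in the chow libraries. It did not overlap between the diets, so diet and clock phase or amplitude cannot be told apart in these 8 libraries. With this score as a covariate edgeR called 0 of 13255 genes for diet, and 669 had an unadjusted p under 0.05. No other tool was run with it. In the CTRL libraries the score was -1.53, -0.24, 0.23 and -0.31 on HSD and 0.84, 0.16, 1.45 and -0.52 on chow.

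**Figure D1:**
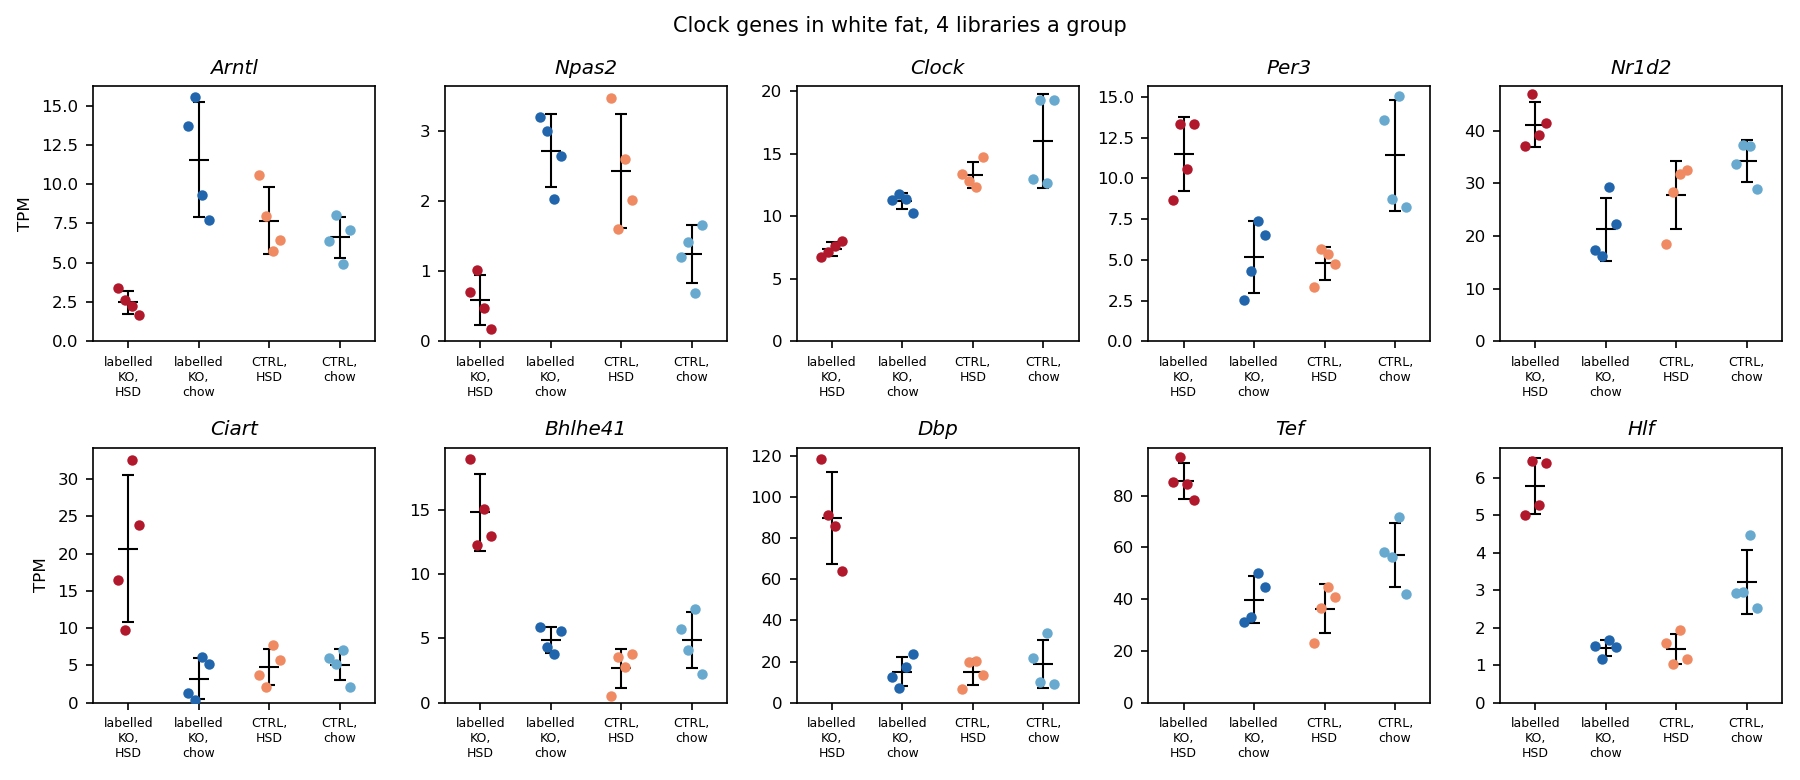
Levels of 10 clock genes in white fat (TPM, linear axis from 0) in labelled-KO HSD, labelled-KO chow, CTRL HSD and CTRL chow libraries. Points are libraries and bars are mean ± SD (n = 4). Labelled-KO HSD libraries lie below the labelled-KO chow libraries for Arntl, Npas2 and Clock and above them for the other 7 genes.

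Promoter windows of 4 of these genes are printed because they match the letters of elements used in the clock loop. The genes were picked from those called, and Arntl fell while Ciart, Bhlhe41 and Per3 rose. Each window runs from 250 bases before to 50 bases after an annotated start, 5′ to 3′ on the gene's strand, from the RefSeq table for GRCm38.p6, with the searched motif in capitals. The windows are chr3:95882179-95882478 (minus strand) for Ciart, chr6:145865371-145865670 (minus strand) for Bhlhe41, chr4:151044616-151044915 (minus strand) for Per3 and chr7:113207261-113207560 (plus strand) for the second of 2 Arntl starts. In Ciart and Bhlhe41 the capitals are the E-box CACGTG, in Per3 the D-box TTATGTAA and in Arntl AGGTCA, the core of the element that ROR and REV-ERB proteins bind. Both strands were searched.
Ciart: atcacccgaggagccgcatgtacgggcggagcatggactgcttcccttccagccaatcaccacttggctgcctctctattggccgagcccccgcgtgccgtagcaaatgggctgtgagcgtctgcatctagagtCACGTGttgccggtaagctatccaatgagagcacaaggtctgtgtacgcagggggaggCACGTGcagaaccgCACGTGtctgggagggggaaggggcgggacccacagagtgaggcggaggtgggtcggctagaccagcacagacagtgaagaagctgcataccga
Bhlhe41: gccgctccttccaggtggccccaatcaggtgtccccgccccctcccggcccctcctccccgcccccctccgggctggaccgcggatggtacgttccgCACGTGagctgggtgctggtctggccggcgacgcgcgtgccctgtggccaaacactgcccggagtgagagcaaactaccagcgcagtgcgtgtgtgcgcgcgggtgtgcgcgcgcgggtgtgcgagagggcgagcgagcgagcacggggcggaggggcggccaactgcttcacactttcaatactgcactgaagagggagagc
Per3: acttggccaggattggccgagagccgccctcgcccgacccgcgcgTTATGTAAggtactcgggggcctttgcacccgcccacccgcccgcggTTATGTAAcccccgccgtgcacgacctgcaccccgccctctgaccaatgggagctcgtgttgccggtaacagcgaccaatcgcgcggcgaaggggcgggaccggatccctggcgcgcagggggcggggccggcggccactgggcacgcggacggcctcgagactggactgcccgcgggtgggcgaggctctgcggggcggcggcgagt
Arntl: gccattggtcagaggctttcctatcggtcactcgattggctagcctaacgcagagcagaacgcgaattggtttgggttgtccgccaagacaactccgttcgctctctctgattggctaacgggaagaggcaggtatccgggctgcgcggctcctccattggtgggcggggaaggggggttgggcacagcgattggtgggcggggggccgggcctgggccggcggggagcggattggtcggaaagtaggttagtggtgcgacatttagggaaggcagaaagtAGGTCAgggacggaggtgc

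Ciart holds 3 E-boxes, 116, 58 and 44 bases before its start, Bhlhe41 holds 1, and Per3 holds 2 D-boxes, 205 and 158 bases before its start. Of 17 clock genes with a window in the table, 5 had CACGTG in one (Bhlhe41, Ciart, Cry1, Per1 and Tef), 1 had TTATGTAA and 5 had AGGTCA, and no 2 of these motifs overlapped in the printed windows. Of all 27025 genes with a window in the table, 8.09% had CACGTG in one, 1.11% TTATGTAA and 18.1% AGGTCA, and of all 32851 windows 7.15%, 0.938% and 16.3% held them. These are matches of letters and show no binding, and Dbp, Hlf and Nr1d1, which also rose, had neither CACGTG nor TTATGTAA in their windows. Cry1 and Per1, which hold CACGTG, were not called.

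**Figure D2:**
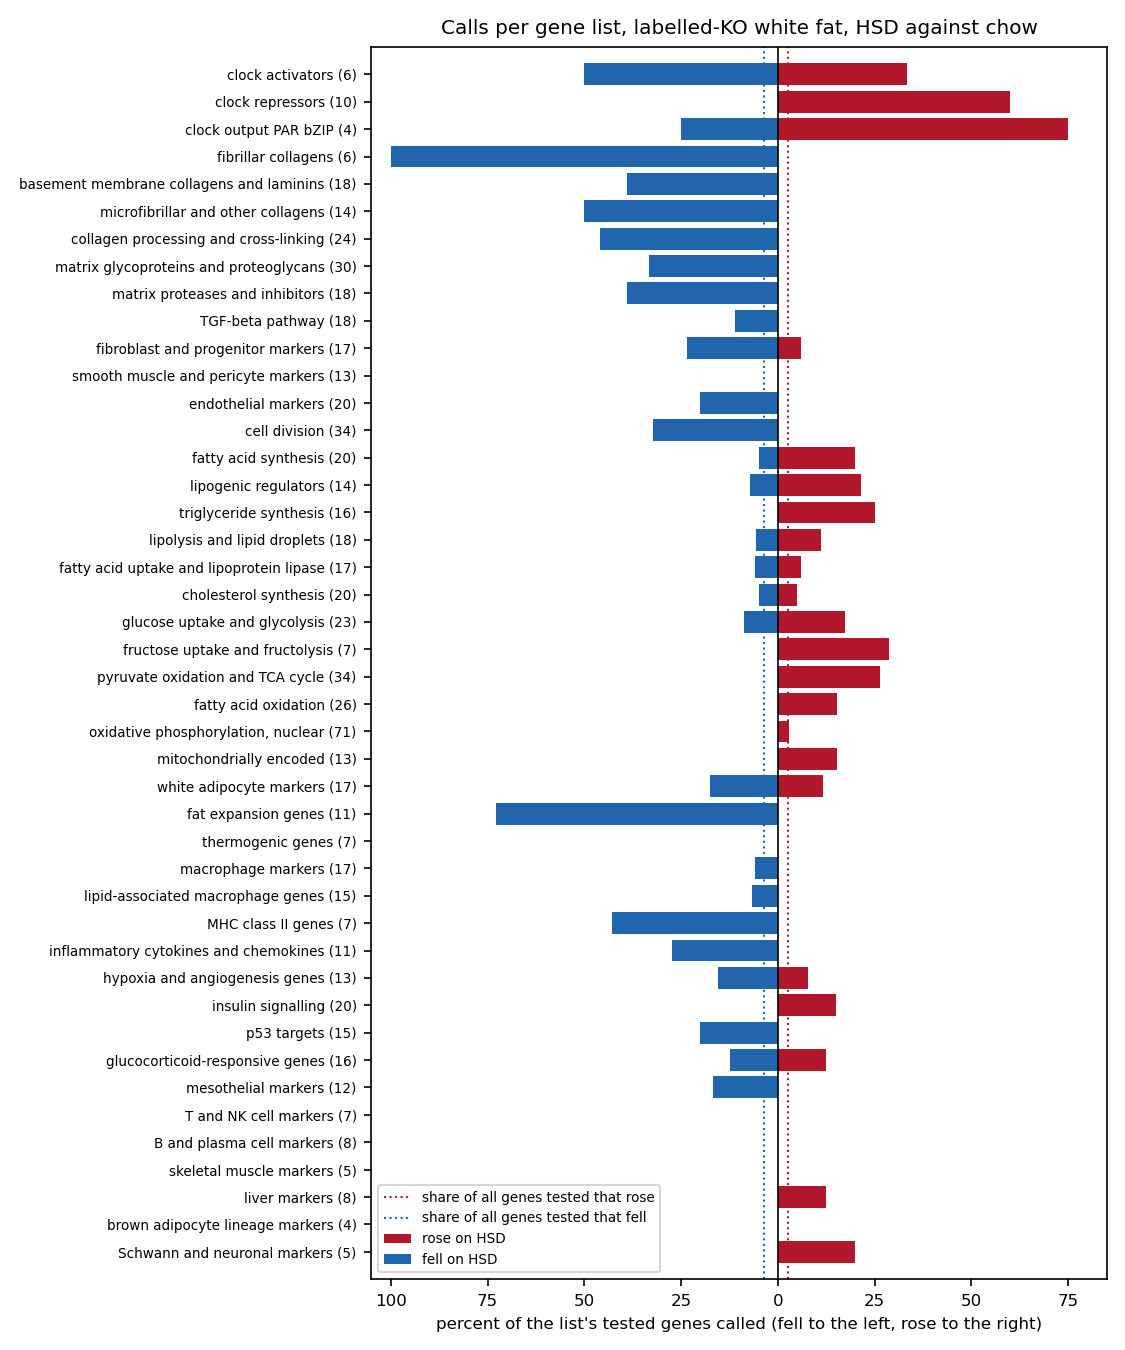
Percent of each gene list called in labelled-KO white fat, HSD against chow, with falls drawn to the left and rises to the right and the number of genes tested in brackets. Dotted lines mark the shares over all genes tested, 2.70% for rises and 3.68% for falls. Collagen, matrix, cell division and fat expansion lists extend to the left, and clock repressors, lipid synthesis and pyruvate oxidation lists to the right.

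Matrix genes were lower on HSD in each of the 6 lists used. Of 110 genes in 6 matrix lists, 48 fell and none rose, with a median log2 fold change of -0.70 beside 0.0041 over all genes. All 6 fibrillar collagen genes tested fell, with a median of -1.11. Col1a1 (GRCm38 chromosome 11, 94936224 to 94953042), the main chain of type I collagen, was at 37.8, 31.2, 26.3 and 17.6 TPM in the HSD libraries, against 88.7, 79, 59.9 and 92.9 TPM in the chow libraries, and no library of one diet reached the other. Col1a1 had a log2 fold change of -1.38 ± 0.27 in edgeR (adjusted p = 0.00739). Col3a1, the type III chain and the most abundant of the 6, was at 383, 305, 236 and 201 TPM in the HSD libraries, against 886, 774, 551 and 517 TPM in the chow libraries, without overlap. Col3a1 had a log2 fold change of -1.13 ± 0.22 in edgeR (adjusted p = 0.0073). Col5a1, whose chain starts fibrils, was at 27.5, 23.6, 23.6 and 21.9 TPM in the HSD libraries, against 85, 89.7, 53.5 and 70.3 TPM in the chow libraries, without overlap. Col5a1 had a log2 fold change of -1.33 ± 0.19 in edgeR (adjusted p = 0.000924). Col1a2 (-1.02 ± 0.18), Col5a2 (-1.08 ± 0.18) and Col5a3 (-0.94 ± 0.23) fell as well. Col5a3 lost its call without chow replicate 1 or 2 or HSD replicate 2 or 3 or 4 (adjusted p up to 0.0876), and the other 5 calls held without any 1 library.

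Type VI collagen, which forms beaded microfibrils around adipocytes, was lower on HSD in each of its 3 main chains. Col6a1 (GRCm38 chromosome 10, 76708792 to 76726168) was at 96.7, 102, 72.9 and 60.3 TPM in the HSD libraries, against 304, 369.5, 244 and 303 TPM in the chow libraries, without overlap. Col6a1 had a log2 fold change of -1.76 ± 0.19 in edgeR (adjusted p = 0.000173). Col6a2 was at 86, 68.1, 59.3 and 51.4 TPM in the HSD libraries, against 248, 308, 177 and 239 TPM in the chow libraries and Col6a3 at 17.5, 16.4, 12 and 10.5 TPM in the HSD libraries, against 47.8, 58.5, 32.6 and 37.2 TPM in the chow libraries. Both pairs of ranges were apart, with log2 fold changes of -1.74 ± 0.23 for Col6a2 and -1.56 ± 0.24 for Col6a3. Of 14 microfibrillar and other collagens 7 fell, with a median of -0.88. The fibril-associated Col12a1 fell by 2.17 ± 0.34, Col16a1 by 2.71 ± 0.71 and Col14a1 by 0.96 ± 0.27, and the network-forming Col8a1 by 1.38 ± 0.28. Col16a1 lost its call without chow replicate 1 or 2 or 4 or HSD replicate 2 or 3 or 4 (adjusted p up to 0.0995). Of 18 basement membrane collagens and laminins 7 fell, with a median of -0.47. Col4a1 was at 166, 170.4, 191 and 181 TPM in the HSD libraries, against 344, 421, 292 and 335 TPM in the chow libraries, without overlap. Col4a1 had a log2 fold change of -0.99 ± 0.19 in edgeR (adjusted p = 0.00584). Its partner Col4a2, read from the opposite strand of the same locus with overlapping exons, was at -0.99 ± 0.18. Hspg2 (perlecan), at -0.83 ± 0.17, Col18a1, at -0.79 ± 0.15, and Lamc1, a laminin chain, at -0.40 ± 0.10, fell too, as did Col15a1 (-0.88 ± 0.25) and Col4a5 (-0.73 ± 0.18). With 1 library left out, 5 to 7 microfibrillar and other collagens and 4 to 7 basement membrane genes kept an adjusted p under 0.05. Fewest basement membrane calls were left without chow replicate 1, chow replicate 2 or HSD replicate 3.

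Of 24 enzymes and chaperones that process collagen 11 fell, and all 24 had a lower mean on HSD (median -0.63). Serpinh1 (HSP47), the collagen chaperone, was at 223, 165, 167 and 122 TPM in the HSD libraries, against 440.3, 567, 292 and 406 TPM in the chow libraries, without overlap. Serpinh1 had a log2 fold change of -1.21 ± 0.23 in edgeR (adjusted p = 0.00584). Loxl2, a lysyl oxidase that cross-links collagen, was at 15.1, 11.8, 12.5 and 8.24 TPM in the HSD libraries, against 41.9, 37.5, 30.7 and 38.9 TPM in the chow libraries, without overlap. Loxl2 had a log2 fold change of -1.51 ± 0.21 in edgeR (adjusted p = 0.00109). Lox fell by 1.01 ± 0.18 and Loxl3 by 0.83 ± 0.13, and the procollagen proteinases Bmp1 and Adamts2 by 1.09 ± 0.16 and 0.98 ± 0.15. Pcolce, which speeds BMP1, fell by 1.05 ± 0.24, the prolyl and lysyl hydroxylases P3h1, Plod1 and Plod2 by 0.71 ± 0.13, 0.54 ± 0.11 and 0.51 ± 0.12, and the foldase Fkbp10 by 0.72 ± 0.16. Calls in this list ran from 8 without HSD replicate 3 to 15 without HSD replicate 1.

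Of 30 matrix glycoproteins and proteoglycans 10 fell and 27 had a lower mean (median -0.68). Sparc, a collagen-binding glycoprotein and the most abundant of them, was at 1748, 1620.0, 1608 and 1979.5 TPM in the HSD libraries, against 3932, 4789.9, 3281 and 3662 TPM in the chow libraries, without overlap. Sparc had a log2 fold change of -1.03 ± 0.15 in edgeR (adjusted p = 0.00113). Eln (elastin) was at 39.1, 36.2, 36.2 and 18.6 TPM in the HSD libraries, against 71.7, 102, 73.2 and 90.3 TPM in the chow libraries, without overlap. Eln had a log2 fold change of -1.25 ± 0.23 in edgeR (adjusted p = 0.00544). Mfap4, an elastic fibre protein, was at 3.22, 4.46, 3.94 and 2.03 TPM in the HSD libraries, against 25, 27.1, 11.7 and 28.7 TPM in the chow libraries, without overlap. Mfap4 had a log2 fold change of -2.55 ± 0.32 in edgeR (adjusted p = 0.000432). Fbn1 (fibrillin-1, -1.28 ± 0.30), the fibulins Fbln2 (-1.13 ± 0.21) and Fbln5 (-0.90 ± 0.17), Postn (periostin, -0.98 ± 0.21) and the small leucine-rich proteoglycans Bgn (-0.92 ± 0.17), Lum (-0.79 ± 0.18) and Fmod (-0.93 ± 0.25) also fell. Fbn1 kept its call in 4 of the 8 fits with 1 library left out (adjusted p up to 0.0706). Of 18 matrix proteases and inhibitors 7 fell and none rose. The aggrecanases Adamts5 and Adamts4 were at -1.40 ± 0.19 and -1.33 ± 0.38, the metalloproteinases Mmp15 and Mmp2 at -1.29 ± 0.22 and -0.44 ± 0.12, cathepsin K (Ctsk) at -0.81 ± 0.19 and the inhibitor Timp1 at -1.15 ± 0.33. With 1 library left out, Mmp2 kept its call in 2 of 8 fits, Timp1 in 3 and Ctsk in 4 (adjusted p up to 0.109, 0.133 and 0.084). The macrophage elastase Mmp12 was at 0.564, 0.441, 0.42 and 0 TPM in the HSD libraries, against 2.53, 3.87, 9.31 and 4.12 TPM in the chow libraries, without overlap. Mmp12 had a log2 fold change of -3.64 ± 0.61 in edgeR (adjusted p = 0.00298). With 1 library left out, calls ran from 7 to 13 in the glycoprotein list and from 3 to 6 in the protease list, with the fewest in both without chow replicate 2 or HSD replicate 3, and in the protease list also without HSD replicate 2.

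Markers of the cells that make or border this matrix gave between 0 and 5 calls in each list. Over all genes 2.70% rose and 3.68% fell. Of 17 fibroblast and progenitor markers 4 fell and 1 rose, 14 had a lower mean and the median was -0.60. TPM ranges lay wholly below those of chow for 8, beside 13.5% of all genes. At an unadjusted p under 0.05 edgeR had 11 of the 17, beside 3083 of all 13255, DESeq2 called 7 and limma 6. Pdgfrb, a receptor of perivascular progenitors, was at 16.8, 16.8, 13.9 and 14.5 TPM in the HSD libraries, against 25.5, 30.2, 24 and 26.8 TPM in the chow libraries, without overlap. Pdgfrb had a log2 fold change of -0.65 ± 0.11 in edgeR (adjusted p = 0.00276). Thy1 was at -1.31 ± 0.29, the Wnt modulator Sfrp2 at -1.57 ± 0.37 and Anxa3 at -0.94 ± 0.21, with F3 (tissue factor) at 0.61 ± 0.17. Sfrp2 kept its call in 4 of the 8 fits with 1 library left out and F3 in 1 (adjusted p up to 0.0671 and 0.098). The marker sum overlapped, at 6615 to 9119 TPM in the HSD libraries and 4871 to 9211 TPM in the chow libraries. None of 13 smooth muscle and pericyte markers was called, Acta2 being at -0.84 ± 0.25 (adjusted p = 0.0578), and their sum was 541 to 826 TPM in the HSD libraries and 825 to 1022 TPM in the chow libraries. At an unadjusted p under 0.05 edgeR had 5 of the 13, DESeq2 called 1 and limma 3. Of 20 endothelial markers 4 fell, the junction genes Cdh5 (-0.65 ± 0.15), Esam (-0.53 ± 0.10) and Cldn5 (-1.03 ± 0.25) and the receptor Robo4 (-0.73 ± 0.20), and the sum did not overlap, at 990.4 to 1039 TPM in the HSD libraries and 1105 to 1648 TPM in the chow libraries. Of 12 mesothelial markers 2 fell, Msln (mesothelin, -1.17 ± 0.30) and Krt14 (-3.70 ± 0.89), all 12 had a lower mean, and the sum did not overlap, at 136 to 342 TPM in the HSD libraries and 395 to 620.3 TPM in the chow libraries. In bulk tissue, fewer cells of a type and less RNA per cell cannot be told apart, and the part of these cell markers in the matrix counts was not tested. In the TGF-beta pathway, a main inducer of collagen genes, 2 of 18 genes fell, the decoy receptor Bambi (-1.08 ± 0.26) and the ligand Tgfb3 (-0.46 ± 0.11), and 0 were called without chow replicate 1, HSD replicate 3 or HSD replicate 4. Without HSD replicate 3, calls fell to 2 for the fibroblast list, 1 for the endothelial list and 0 for the mesothelial list. Endothelial calls were also at 1 without chow replicate 2, and mesothelial calls at 0 without chow replicate 1, chow replicate 2 or HSD replicate 4.

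**Figure D3:**
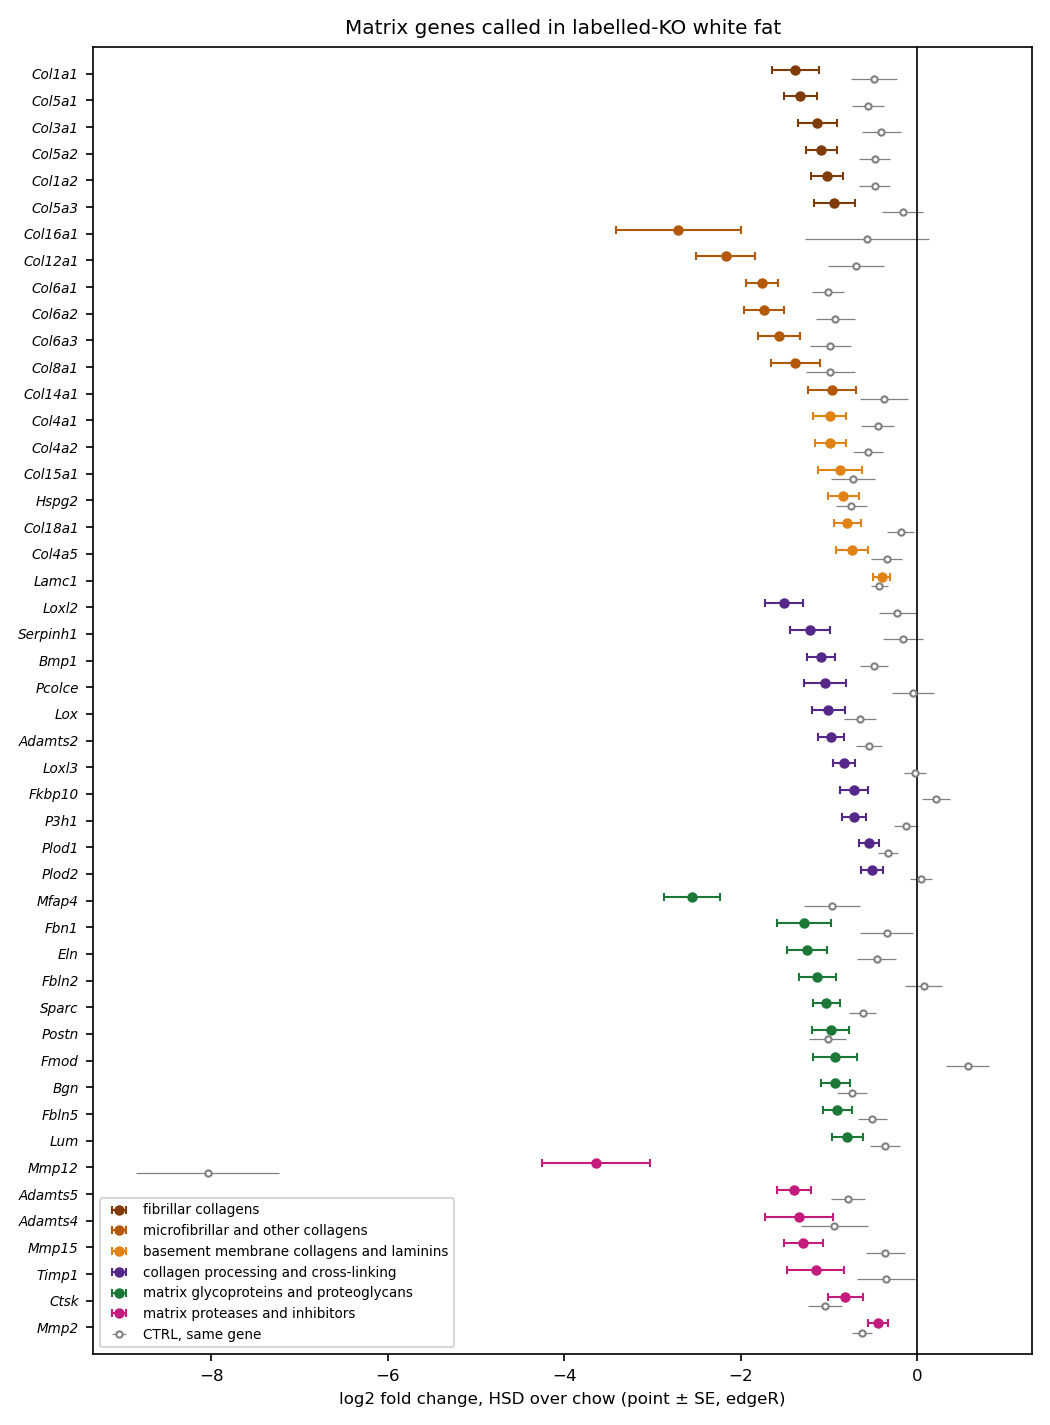
Log2 fold changes (HSD over chow, point ± SE) of the 48 matrix genes called in labelled-KO white fat, coloured by list, with the same gene in CTRL white fat as an open grey point. All 48 labelled-KO points lie below 0, and 43 of them are further from 0 than the CTRL point. The genes were chosen by their labelled-KO call, which favours larger labelled-KO changes. Mmp12 was near 0 in the CTRL HSD libraries, so its CTRL point depends on the prior count.

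In CTRL white fat the same 48 genes were mostly lower on HSD as well. The direction was the same for 44 of them, beside 622 of all 846 labelled-KO calls. The labelled-KO change was further from 0 for 43, but the 48 were chosen by their labelled-KO call, which favours that outcome. In CTRL 9 of the 92 genes in the first 5 lists and 4 of the 18 proteases and inhibitors were called as falls, beside 2.92% of all genes. The interaction test called 0 of the 110 matrix genes with edgeR and 0 with limma, while DESeq2 called 11, and 41 had an unadjusted p under 0.05 in edgeR. Over all 13255 genes DESeq2 called 519 and edgeR had 2448 at an unadjusted p under 0.05. Levels in CTRL chow replicates 2 and 4 rose with transcript length (slopes of 0.21 and 0.13 per log2 length unit). Over all genes the 632 CTRL calls became 202 with a length correction and 9 without these 2 libraries. The effect on the CTRL matrix calls was not tested. For Col6a1 the CTRL levels were 116, 110.2, 72.3 and 89.5 TPM on HSD and 158, 269.5, 211 and 237 TPM on chow (edgeR log2 fold change -1.01 ± 0.18, adjusted p = 0.009), and the interaction was -0.74 ± 0.26, adjusted p = 0.144. For Col1a1 they were 51.8, 38.7, 21.3 and 29.1 TPM on HSD and 33.8, 57.2, 63.7 and 66.4 TPM on chow (edgeR log2 fold change -0.49 ± 0.26, adjusted p = 0.277), and the interaction was -0.89 ± 0.37, adjusted p = 0.218.

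Cell division genes were lower on HSD, but the chow libraries differed among themselves. Of 34 genes 11 fell, none rose and 33 had a lower mean, with a median of -1.34. Cdk1, the kinase that drives mitosis, was at 1.59, 3.47, 2.4 and 2.17 TPM in the HSD libraries, against 11.6, 18, 2.93 and 8.02 TPM in the chow libraries. Chow replicates 1 and 2 were high and chow replicate 3 lay within the HSD range. Cdk1 had a log2 fold change of -2.15 ± 0.48 in edgeR (adjusted p = 0.0155). Top2a (topoisomerase II alpha) was at 1.29, 1.17, 0.943 and 0.936 TPM in the HSD libraries, against 4.29, 5.87, 1.78 and 2.16 TPM in the chow libraries, without overlap but with the same split. Top2a had a log2 fold change of -1.57 ± 0.42 in edgeR (adjusted p = 0.0361). Kif11, a spindle motor, was at 0.525, 0.935, 0.537 and 0.618 TPM in the HSD libraries, against 2.58, 3.05, 1.4 and 1.77 TPM in the chow libraries, without overlap. Kif11 had a log2 fold change of -1.63 ± 0.34 in edgeR (adjusted p = 0.0106). The ubiquitin-conjugating enzyme Ube2c (-1.46 ± 0.32), the cyclin Ccna2 (-1.96 ± 0.50), the APC activator Cdc20 (-3.15 ± 0.73), the spindle genes Tpx2 (-1.97 ± 0.50), Prc1 (-1.71 ± 0.42) and Aurka (-1.10 ± 0.30), the ribonucleotide reductase gene Rrm2 (-1.64 ± 0.40) and the transcription factor E2f1 (-0.44 ± 0.13) also fell. Mki67, the common proliferation marker, was at -1.68 ± 0.56 (adjusted p = 0.0852). The count was lowest without chow replicate 2. Without it 1 gene was called, against 2 without HSD replicate 3, 3 without HSD replicate 4, 4 without chow replicate 1, 7 without HSD replicate 2 and 13 without chow replicate 3, and without chow replicates 1 and 2 together 0 were called.

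The p53 list held 3 falls among 15 genes tested, where 3.68% of all genes fell. Cdkn1a (p21; GRCm38 chromosome 17, 29090976 to 29100727), an inhibitor of cell cycle kinases that p53 and other factors induce, was at 23.8, 26.1, 35.2 and 31.4 TPM in the HSD libraries, against 81.5, 133, 69.98 and 82.8 TPM in the chow libraries, without overlap. Cdkn1a had a log2 fold change of -1.51 ± 0.21 in edgeR (adjusted p = 0.000924). This held without any 1 library. In CTRL it was at 67.8, 56.6, 66.3 and 49.98 TPM in CTRL HSD libraries, against 73.3, 59.99, 54 and 63.1 TPM in CTRL chow libraries, and the diet response differed between the genotypes (interaction -1.64 ± 0.29, adjusted p = 0.0203). Plk2 (-0.84 ± 0.22) and Aen (-0.38 ± 0.10) were the others. Plk2 lost its call without chow replicate 1 or 2 or HSD replicate 2 or 3 or 4 (adjusted p up to 0.119). Aen lost its call without chow replicate 1 or 2 or 4 or HSD replicate 2 or 3 or 4 (adjusted p up to 0.134).

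Several genes of fatty acid and triglyceride synthesis rose on HSD. Of 20 fatty acid synthesis genes 4 rose and 1 fell, and 17 had a higher mean (median 0.66). In CTRL fat 7 of the 20 rose, with a median of 1.18, beside 1.85% of all genes. The interaction test called 0 of the 20 in edgeR and limma and 1 in DESeq2, with 3 at an unadjusted p under 0.05 in edgeR. Scd1 (GRCm38 chromosome 19, 44394455 to 44407879), the desaturase that makes oleate, was at 18846, 14387, 16777 and 31514 TPM in the HSD libraries, against 8431, 7025, 7817 and 6032 TPM in the chow libraries, without overlap. Scd1 had a log2 fold change of 1.64 ± 0.29 in edgeR (adjusted p = 0.00372). Acaca, the acetyl-CoA carboxylase that commits carbon to fatty acid synthesis, was at 231, 142, 211 and 448 TPM in the HSD libraries, against 128, 93.9, 61.6 and 67.1 TPM in the chow libraries, without overlap. Acaca had a log2 fold change of 1.70 ± 0.36 in edgeR (adjusted p = 0.0121). Acacb, its mitochondrial relative, was at 51.4, 35.8, 62 and 61.3 TPM in the HSD libraries, against 12.3, 17.1, 22.6 and 23.6 TPM in the chow libraries, without overlap. Acacb had a log2 fold change of 1.75 ± 0.39 in edgeR (adjusted p = 0.0159). The delta-5 desaturase Fads1 was at 0.97 ± 0.20. Fasn (fatty acid synthase) was at 1311, 651, 974 and 1706 TPM in the HSD libraries, against 833, 785, 266 and 286 TPM in the chow libraries, and HSD replicate 2 lay below chow replicates 1 and 2. Fasn had a log2 fold change of 1.23 ± 0.59 in edgeR (adjusted p = 0.223). Elovl6, which elongates palmitate, was at 2.09 ± 0.69 (adjusted p = 0.0835), and Elovl1, of very long chains, fell by 0.47 ± 0.12. Its exons overlap those of Cdc20 on the other strand. Acacb lost its call without chow replicate 1 or 2 (adjusted p up to 0.0552). Elovl1 lost its call without chow replicate 1 or 2 or 4 or HSD replicate 3 or 4 (adjusted p up to 0.104), while Scd1, Acaca and Fads1 held without any 1 library.

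Of 14 lipogenic regulators 3 rose and 1 fell. Srebf1 was at 126, 95.8, 129 and 89.7 TPM in the HSD libraries, against 65.6, 62, 69.3 and 71 TPM in the chow libraries, without overlap. Srebf1 had a log2 fold change of 0.84 ± 0.23 in edgeR (adjusted p = 0.039). Mlxipl (ChREBP), the carbohydrate-sensing factor, was at 48.8, 49.3, 51 and 41.7 TPM in the HSD libraries, against 21.6, 27.3, 24.5 and 25.1 TPM in the chow libraries, without overlap. Mlxipl had a log2 fold change of 0.83 ± 0.23 in edgeR (adjusted p = 0.0449). Pparg, the master factor of adipocytes, was at 207, 241, 226 and 241 TPM in the HSD libraries, against 187, 158, 176 and 167 TPM in the chow libraries, without overlap. Pparg had a log2 fold change of 0.54 ± 0.12 in edgeR (adjusted p = 0.0138). Srebf2, the regulator of sterol genes, fell by 0.48 ± 0.13. Mlxipl lost its call without chow replicate 1 or 2 or 3 or 4 or HSD replicate 1 or 2 or 3 or 4 (adjusted p up to 0.125). Srebf1 lost its call without chow replicate 1 or 2 or 3 or 4 or HSD replicate 1 or 3 or 4 (adjusted p up to 0.108). Srebf2 lost its call without chow replicate 1 or 2 or 3 or 4 or HSD replicate 1 or 3 or 4 (adjusted p up to 0.101). Pparg lost its call without chow replicate 2 (adjusted p up to 0.0541).

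Of 16 triglyceride synthesis genes 4 rose and none fell, and all 4 held without any 1 library. In the whole list 9 had a higher mean and 7 a lower one, with a median of 0.19, and the summed levels overlapped, at 2026 to 2595 TPM in the HSD libraries and 1643 to 3197 TPM in the chow libraries. Gpam, the mitochondrial enzyme of the first acylation step, was at 116, 136, 118 and 104 TPM in the HSD libraries, against 52.2, 49.5, 79.6 and 70.5 TPM in the chow libraries, without overlap. Gpam had a log2 fold change of 1.05 ± 0.17 in edgeR (adjusted p = 0.00246). Gpat4, its counterpart in the endoplasmic reticulum, was at 81.6, 91.7, 84.4 and 91.5 TPM in the HSD libraries, against 53.1, 50.4, 63.5 and 51.9 TPM in the chow libraries, without overlap. Gpat4 had a log2 fold change of 0.88 ± 0.13 in edgeR (adjusted p = 0.00109). Lpin1 (0.97 ± 0.21), the phosphatidate phosphatase, and Dgat1 (0.69 ± 0.13), of the last step, rose as well. Acsl1, which activates fatty acids to acyl-CoA, was at 967, 805, 946 and 1022 TPM in the HSD libraries, against 506, 577, 502 and 452 TPM in the chow libraries, without overlap. Acsl1 had a log2 fold change of 1.03 ± 0.15 in edgeR (adjusted p = 0.00128). It was the only rise among 17 genes of fatty acid uptake and lipoprotein lipase, where Angptl4, the inhibitor of that lipase, fell by 0.66 ± 0.17. Of 18 lipolysis and lipid droplet genes Pde3b (0.67 ± 0.16), which mediates insulin's brake on lipolysis, and Abhd5 (0.69 ± 0.19), the coactivator of ATGL, rose and Hilpda (-0.81 ± 0.21), an ATGL inhibitor, fell. Neither rise was called without chow replicate 1, chow replicate 2, HSD replicate 3 or HSD replicate 4. Hilpda lost its call without chow replicate 1 or 2 or 4 or HSD replicate 2 or 4 (adjusted p up to 0.0839). Angptl4 lost its call without chow replicate 2 or 4 or HSD replicate 2 or 4 (adjusted p up to 0.0774). Of 20 cholesterol synthesis genes Fdft1 (squalene synthase) rose by 0.71 ± 0.14 and Hmgcs1 fell by 1.26 ± 0.35. The uptake, lipid droplet and cholesterol counts stand beside 2.70% of all genes that rose and 3.68% that fell. Those of the uptake and cholesterol lists are near these shares. Hmgcs1 was at 55.1, 51.4, 47.2 and 56.6 TPM in the HSD libraries, against 187, 192, 70.4 and 72.4 TPM in the chow libraries, without overlap but with chow replicates 1 and 2 far above chow replicates 3 and 4, and Hmgcs1 lost its call without chow replicate 1 or 2 or HSD replicate 1 or 2 or 3 or 4 (adjusted p up to 0.138).

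**Figure D4:**
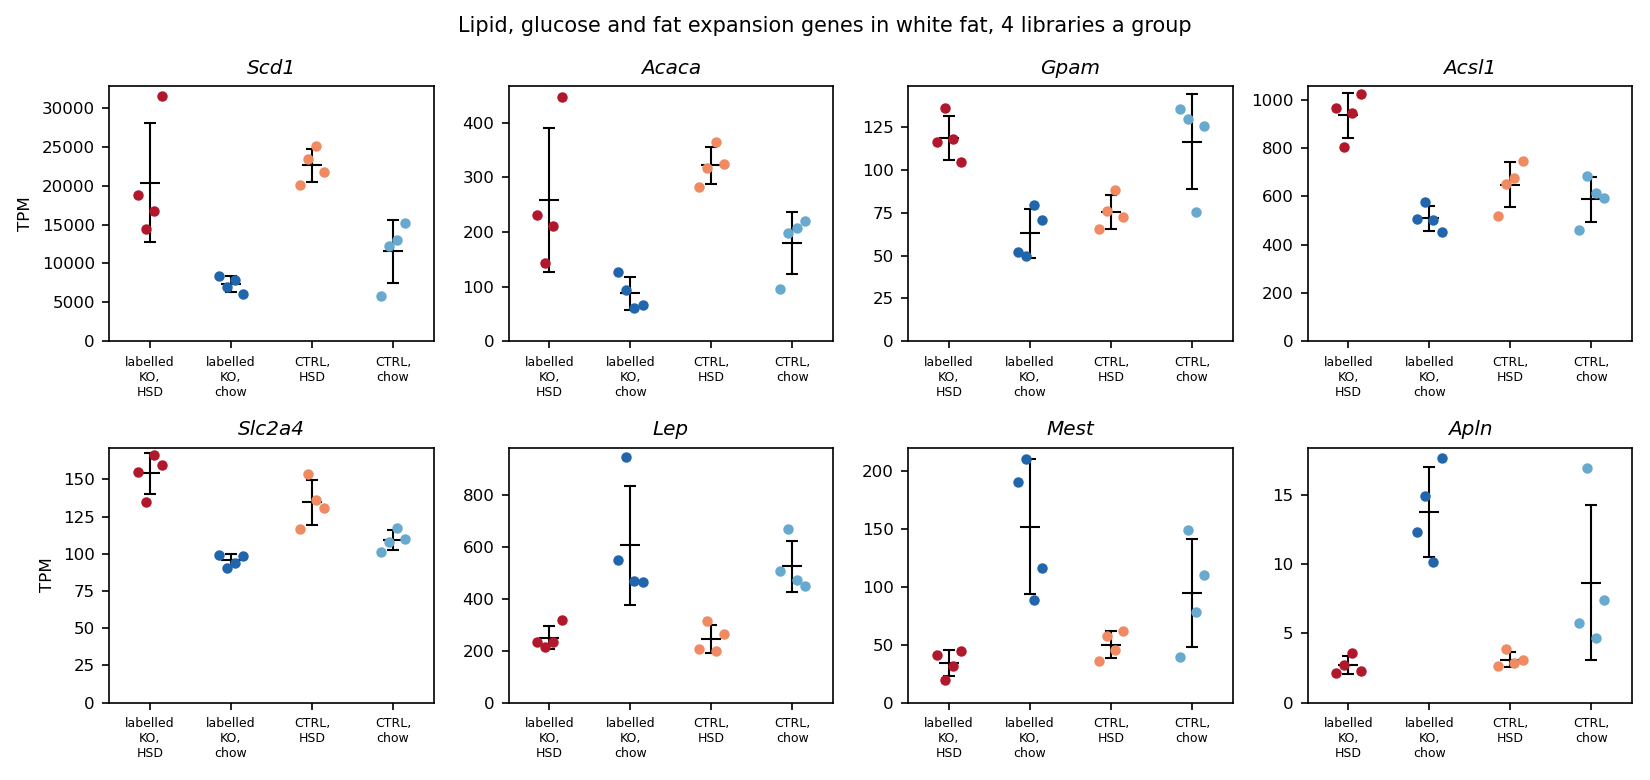
Levels of 8 lipid, glucose and fat expansion genes in white fat (TPM, linear axis from 0) in labelled-KO HSD, labelled-KO chow, CTRL HSD and CTRL chow libraries, with mean ± SD (n = 4). In labelled-KO fat Scd1, Acaca, Gpam, Acsl1 and Slc2a4 are higher on HSD and Lep, Mest and Apln are lower, each without overlap. Gpam is lower on HSD in CTRL means.

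Genes of glucose and fructose handling were called in both directions. Slc2a4 (GLUT4; GRCm38 chromosome 11, 69942539 to 69948188) was at 155, 135, 167 and 159.6 TPM in the HSD libraries, against 99.4, 90.6, 94.1 and 98.7 TPM in the chow libraries, without overlap. Slc2a4 had a log2 fold change of 0.78 ± 0.11 in edgeR (adjusted p = 0.000924). Among 23 genes of glucose uptake and glycolysis 4 rose and 2 fell, where 2.70% of all genes rose and 3.68% fell. The insulin-responsive hexokinase Hk2 (0.68 ± 0.14), the bifunctional enzyme Pfkfb1 (0.83 ± 0.13) and Ldhb (0.30 ± 0.08) rose, and Hk1 (-0.42 ± 0.11) and the phosphofructokinase Pfkp (-0.55 ± 0.15) fell. Ldhb lost its call without chow replicate 1 or 3 or 4 or HSD replicate 1 or 3 (adjusted p up to 0.0901). Hk1 lost its call without chow replicate 1 or 2 or 4 or HSD replicate 1 or 3 or 4 (adjusted p up to 0.102). Pfkp lost its call without chow replicate 1 or 2 or HSD replicate 1 or 2 or 3 (adjusted p up to 0.141). The fructose transporter Slc2a5 (GLUT5) was at 0.262, 0.192, 0.17 and 2.07 TPM in the HSD libraries, against 0.084, 0, 0.0617 and 0.0586 TPM in the chow libraries. The chow libraries held 3.33 estimated counts in all and the HSD libraries 54.3, of which HSD replicate 4 gave 42. Slc2a5 had a log2 fold change of 3.90 ± 1.01 in edgeR (adjusted p = 0.0305). Slc2a5 lost its call without chow replicate 1 or 2 or 4 or HSD replicate 4 (adjusted p up to 0.136). Sord, which makes fructose from sorbitol, rose by 0.42 ± 0.08, and the fructokinase gene Khk was at 0.77 ± 0.24 (adjusted p = 0.0628).

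Of 34 genes that oxidise pyruvate or run the TCA cycle, 9 rose, none fell and 30 had a higher mean (median 0.32). Pdk1, a kinase that inhibits pyruvate dehydrogenase, was at 12.5, 10.01, 9.92 and 14.9 TPM in the HSD libraries, against 8.43, 6.49, 7.96 and 7.14 TPM in the chow libraries, without overlap. Pdk1 had a log2 fold change of 0.81 ± 0.15 in edgeR (adjusted p = 0.00478). Pdp2, a phosphatase that reactivates it, was at 7.46, 8.22, 8.41 and 5.23 TPM in the HSD libraries, against 4.68, 4.82, 4.44 and 3.7 TPM in the chow libraries, without overlap. Pdp2 had a log2 fold change of 0.86 ± 0.16 in edgeR (adjusted p = 0.00542). Suclg2, of succinyl-CoA synthetase, rose by 0.51 ± 0.09, Pcx (pyruvate carboxylase) by 0.74 ± 0.21, Pdhx by 0.51 ± 0.13, the succinate dehydrogenase subunits Sdha and Sdhb by 0.50 ± 0.11 and 0.44 ± 0.12, and the aconitase Aco1 by 0.43 ± 0.12. Pdk1, Pdp2 and Suclg2 held without any 1 library, and calls in the list were 10 without HSD replicate 2 and 3 to 5 without each of the other libraries. Of 26 fatty acid oxidation genes 4 rose, none fell and 25 had a higher mean (median 0.21). They were the receptor Ppara (1.03 ± 0.21), the peroxisomal enzyme Ehhadh (0.74 ± 0.15), Cpt2 (0.43 ± 0.12) of the carnitine shuttle and the hydratase Echs1 (0.40 ± 0.11), and Ppara and Ehhadh held without any 1 library. Cpt2 lost its call without chow replicate 2 or 3 or 4 or HSD replicate 1 or 3 or 4 (adjusted p up to 0.124). Echs1 lost its call without chow replicate 2 or 3 or 4 or HSD replicate 1 or 3 or 4 (adjusted p up to 0.124). Of 71 nuclear genes of oxidative phosphorylation 68 had a higher mean (median 0.23). In edgeR only the complex I genes Ndufa9 (0.38 ± 0.10) and Ndufs1 (0.42 ± 0.12) were called, near the background share. At an unadjusted p under 0.05 edgeR had 26 of the 71, DESeq2 called 11 and limma 0. Their sum did not overlap, at 23119 to 24415 TPM in the HSD libraries and 22294 to 22733 TPM in the chow libraries. In CTRL fat 31 of the 71 rose, and the part of the length trend of CTRL chow libraries in this was not tested. Of 13 mitochondrially encoded genes all had a higher mean and mt-Nd6 (0.59 ± 0.16) and mt-Atp8 (0.52 ± 0.15) were called in edgeR. At an unadjusted p under 0.05 edgeR had 10 of the 13, DESeq2 called 7 and limma 0. Each of these 2 lists had 0 edgeR calls without chow replicate 3, chow replicate 4, HSD replicate 3 or HSD replicate 4. Mitochondrial transcripts took 8.96 to 11.1% of counts in the HSD libraries and 6.43 to 9.36% in the chow libraries, which overlap.

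Genes whose levels track the growth of a fat pad were lower on HSD. Of 11 tested 8 fell, none rose, and the median was -1.14. Lep (leptin; GRCm38 chromosome 6, 29060220 to 29073877) was at 233, 217, 234 and 317 TPM in the HSD libraries, against 551, 945, 467 and 464 TPM in the chow libraries, without overlap. Lep had a log2 fold change of -1.14 ± 0.23 in edgeR (adjusted p = 0.01). Mest, an imprinted gene named for mesoderm, was at 41.1, 19.4, 31.3 and 44.5 TPM in the HSD libraries, against 191, 211, 88.9 and 117 TPM in the chow libraries, without overlap. Mest had a log2 fold change of -2.0 ± 0.40 in edgeR (adjusted p = 0.009). Apln (apelin), a peptide of adipocytes and vessels, was at 2.14, 2.74, 3.61 and 2.32 TPM in the HSD libraries, against 12.3, 14.9, 10.1 and 17.6 TPM in the chow libraries, without overlap. Apln had a log2 fold change of -2.21 ± 0.33 in edgeR (adjusted p = 0.00158). Sfrp5, a secreted Wnt antagonist, was at 16.3, 23.7, 9.72 and 12.9 TPM in the HSD libraries, against 26, 60.1, 62.4 and 83.7 TPM in the chow libraries, without overlap. Sfrp5 had a log2 fold change of -1.76 ± 0.39 in edgeR (adjusted p = 0.0159). Peg3 (-1.65 ± 0.36), Bmp3 (-1.42 ± 0.30), Npr3, the clearance receptor of natriuretic peptides (-0.67 ± 0.19), and Angptl4 (-0.66 ± 0.17) made up the 8. Lep, Mest, Apln, Peg3 and Bmp3 held without any 1 library. Sfrp5 lost its call without HSD replicate 3 or 4 (adjusted p up to 0.0585). Npr3 lost its call without chow replicate 1 or 2 or 3 or HSD replicate 1 or 2 or 3 (adjusted p up to 0.137). In CTRL fat 5 of the 11 fell too, and the interaction test called 0 of the 11 in edgeR, DESeq2 and limma, with 1 at an unadjusted p under 0.05 in edgeR. For Lep the CTRL levels were 205, 316, 200.4 and 263 TPM on HSD and 507, 669, 474 and 449.7 TPM on chow. General adipocyte markers showed no common direction. Of 17 tested 2 rose (Slc2a4 and Pparg) and 3 fell (Lep, Sfrp5 and Npr3), and Adipoq (0.20 ± 0.14), Fabp4 (0.25 ± 0.16) and Plin1 (0.32 ± 0.14) had adjusted p of 0.406, 0.366 and 0.176. None of 7 thermogenic genes tested was called in edgeR or limma, 3 had an unadjusted p under 0.05 in edgeR and DESeq2 called 1.

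The immune lists gave between 0 and 3 calls each, all of them falls, where 3.68% of all genes fell. Both macrophage lists held 1 call each, near the 3.68% of all genes that fell. Itgax (CD11c) was the only call among 17 macrophage markers, at 1.75, 2.44, 0.985 and 1.51 TPM in the HSD libraries, against 3.9, 2.76, 4.12 and 4.08 TPM in the chow libraries, without overlap. Itgax had a log2 fold change of -1.0 ± 0.26 in edgeR (adjusted p = 0.0302). Mmp12 was the only one among 15 lipid-associated macrophage genes. The macrophage marker sum was 706 to 1113 TPM in the HSD libraries and 1070.2 to 1350.4 TPM in the chow libraries. Of 11 cytokine and chemokine genes tested 3 fell, the monocyte attractants Ccl2 and Ccl7 and the macrophage growth factor Csf1. Ccl2 was at 10.8, 8.29, 4.96 and 2.56 TPM in the HSD libraries, against 31.5, 14.7, 19.2 and 15.8 TPM in the chow libraries, without overlap. Ccl2 had a log2 fold change of -1.48 ± 0.33 in edgeR (adjusted p = 0.0152). Ccl7 and Csf1 were at -1.56 ± 0.44 and -0.58 ± 0.16. All 7 MHC class II genes had lower TPM on HSD without overlap, beside 13.5% of all genes. The edgeR test called 3, the antigen-loading genes H2-DMa (-0.59 ± 0.14) and H2-DMb1 (-0.69 ± 0.16) and the transactivator Ciita (-0.81 ± 0.23). H2-Ab1 was at -0.49 ± 0.14 (adjusted p = 0.0501). All 7 had an unadjusted p under 0.05 in edgeR, and DESeq2 called 7 and limma 6. No marker of T and NK cells (7 tested) or of B and plasma cells (8 tested) was called in edgeR, DESeq2 or limma, and 0 had an unadjusted p under 0.05 in edgeR. Itgax lost its call without chow replicate 1 or 4 or HSD replicate 3 or 4 (adjusted p up to 0.0897). Ccl2 lost its call without chow replicate 1 or HSD replicate 3 (adjusted p up to 0.0579). The cytokine list had 0 calls without chow replicate 1 or HSD replicate 3, and the MHC class II list had 0 without chow replicate 4, HSD replicate 2 or HSD replicate 4 and 6 without chow replicate 2.

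Of 20 insulin signalling genes 3 rose, among them Pik3r1 and Insr, where 2.70% of all genes rose and 3.68% fell. Pik3r1, the regulatory subunit of PI3 kinase, was at 0.85 ± 0.18 and the receptor Insr at 0.53 ± 0.14. Pik3r1 lost its call without chow replicate 2 (adjusted p up to 0.0529). Insr lost its call without chow replicate 1 or 2 or 4 or HSD replicate 2 or 3 or 4 (adjusted p up to 0.102). Among 13 hypoxia and angiogenesis genes Angpt1, the vessel-stabilising ligand of TIE2, was at 14, 13.7, 16.3 and 12.4 TPM in the HSD libraries, against 5.43, 2.62, 7.63 and 2.96 TPM in the chow libraries, without overlap. Angpt1 had a log2 fold change of 1.75 ± 0.33 in edgeR (adjusted p = 0.00698). Its antagonist Angpt2 was at 2.77, 2.65, 1.59 and 3.14 TPM in the HSD libraries, against 6.87, 9.71, 5.19 and 7.05 TPM in the chow libraries, also without overlap but lower on HSD. Angpt2 had a log2 fold change of -1.37 ± 0.31 in edgeR (adjusted p = 0.0151). Angpt2 lost its call without chow replicate 2 or HSD replicate 3 (adjusted p up to 0.057). Of 16 glucocorticoid-responsive genes Fkbp5 (0.80 ± 0.20) and Klf9 (0.64 ± 0.17), which is also a clock output in some tissues, rose, and Cdkn1a and Angptl4 fell. Fkbp5 lost its call without chow replicate 1 or 2 or 4 or HSD replicate 2 or 3 or 4 (adjusted p up to 0.0953). Klf9 lost its call without chow replicate 1 or 2 or HSD replicate 2 or 3 or 4 (adjusted p up to 0.0987).

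Outside these lists, the 12 largest rises with separate ranges held several genes of single functions. Slc5a6 (GRCm38 chromosome 5, 31036036 to 31048924), the sodium-dependent vitamin transporter for biotin and pantothenate, was at 80.2, 67.7, 87 and 45.4 TPM in the HSD libraries, against 19.2, 14.9, 20.8 and 24.1 TPM in the chow libraries, without overlap. Slc5a6 had a log2 fold change of 2.06 ± 0.23 in edgeR (adjusted p = 0.000337). Pard6g, a cell polarity gene, was at 15.6, 18.6, 14.1 and 9.84 TPM in the HSD libraries, against 3.6, 3.34, 5.76 and 3.73 TPM in the chow libraries, without overlap. Pard6g had a log2 fold change of 1.96 ± 0.23 in edgeR (adjusted p = 0.000337). H2-Q10, a secreted class I molecule of the MHC, was at 55.4, 21.5, 44 and 53 TPM in the HSD libraries, against 8.08, 8.0, 16 and 2.18 TPM in the chow libraries, without overlap. H2-Q10 had a log2 fold change of 2.53 ± 0.53 in edgeR (adjusted p = 0.0121). It shares sequence with other class I genes, so its reads are uncertain. Adgb (2.54 ± 0.49) held without any 1 library, as did Slc5a6, Pard6g and H2-Q10. Tmem56, Rassf6 and Rwdd3 had log2 fold changes of 2.55 ± 0.68, 2.33 ± 0.56 and 1.98 ± 0.49. Tmem56 lost its call without chow replicate 1 or 2 or 4 or HSD replicate 1 or 2 or 3 or 4 (adjusted p up to 0.11). Rassf6 lost its call without chow replicate 1 or 2 or HSD replicate 3 or 4 (adjusted p up to 0.0762). Rwdd3 lost its call without chow replicate 1 or 2 or 4 or HSD replicate 3 or 4 (adjusted p up to 0.0821). Cyp2e1, an ethanol-metabolising cytochrome P450 found in liver and fat and the only liver marker called of 8 tested, was at 4718, 5280.2, 5153 and 4144 TPM in the HSD libraries, against 1768, 1772, 2369 and 1678 TPM in the chow libraries, without overlap (edgeR log2 fold change 1.49 ± 0.21, adjusted p = 0.000924), while Alb was at -1.38 ± 0.65 (adjusted p = 0.218), and at 0.45 without chow replicate 3.

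The 12 largest falls with separate ranges included a Wnt ligand, a GABA receptor subunit and a tight junction gene. Wnt11, a secreted Wnt ligand, was at 0.178, 0.307, 0.271 and 0.359 TPM in the HSD libraries, against 2.32, 2.54, 4.02 and 2.83 TPM in the chow libraries, without overlap. Wnt11 had a log2 fold change of -2.51 ± 0.37 in edgeR (adjusted p = 0.00111). Gabrr2, a GABA receptor subunit, was at -2.51 ± 0.44. Prnd, the gene of the prion-like protein doppel, was at 1.02, 1.68, 1.45 and 1.04 TPM in the HSD libraries, against 8.18, 14.9, 5.63 and 9.13 TPM in the chow libraries, without overlap. Prnd had a log2 fold change of -2.82 ± 0.55 in edgeR (adjusted p = 0.00739). Its exons overlap those of Prn on the same strand. Cldn1, a tight junction gene, was at 0.753, 1.03, 0.861 and 0.0782 TPM in the HSD libraries, against 5.19, 3.61, 1.44 and 6.79 TPM in the chow libraries, without overlap (edgeR log2 fold change -2.52 ± 0.59, adjusted p = 0.0211), the mitotic kinesin Kif22 at -2.35 ± 0.57, the calcium channel gene Cacna1e at -2.28 ± 0.55 and the protease gene Prss51 at -3.60 ± 0.96. Cldn1 lost its call without chow replicate 1 or 4 or HSD replicate 3 or 4 (adjusted p up to 0.061). Kif22 lost its call without chow replicate 1 or 2 or HSD replicate 2 or 3 or 4 (adjusted p up to 0.093). Cacna1e lost its call without chow replicate 4 or HSD replicate 1 or 3 or 4 (adjusted p up to 0.0794). Prss51 lost its call without chow replicate 1 or 2 or 3 or 4 or HSD replicate 1 or 2 or 4 (adjusted p up to 0.0882), whereas Wnt11, Gabrr2 and Prnd held without any 1 library. Uqcc1 (GRCm38 chromosome 2, 155846894 to 155930310), an assembly factor of complex III, had the largest fitted fall, at 0.47, 0.0047, 0 and 0.00239 TPM in the HSD libraries, against 9.15, 3.9, 3.82 and 4.08 TPM in the chow libraries, without overlap. The HSD libraries held 2 rounded counts in all, against 249 in the chow libraries, a ratio of 0.00689 per total count with an exact 95% interval of 0.000830 to 0.0251 that covers counting error only. In CTRL fat Uqcc1 was at 1.63, 3.32, 2.55 and 1.35 TPM in CTRL HSD libraries, against 2.91, 1.82, 2.53 and 1.44 TPM in CTRL chow libraries, and in labelled-KO liver, heart and muscle its diet groups overlapped.

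The diet response was then compared between the genotypes, as the interaction of genotype and diet in the same 16-library fit, with the genotypes as labelled. In CTRL fat 245 genes rose (1.85%) and 387 fell (2.92%) on HSD. Those CTRL calls ran from 94 without CTRL HSD replicate 1 to 1024 without CTRL chow replicate 3, with 490 without CTRL chow replicate 1, 147 without CTRL chow replicate 2, 151 without CTRL chow replicate 4 and 185, 341 and 220 without CTRL HSD replicates 2, 3 and 4. Of the 846 labelled-KO calls 622 had the same direction in CTRL. The share with the same direction over all 13255 genes was not computed. In both genotypes 132 genes were called, 15.6% of the labelled-KO calls and 20.9% of the CTRL calls, 120 of them in one direction. The interaction called 76 of 13255 genes (0.573%), and for 71 of these the diet effect had opposite signs in the genotypes. The 76 were chosen by their difference between the genotypes, which favours opposite signs. Clock genes made up 7 of the 76, out of 20 tested. Hlf was at 1.59, 1.04, 1.94 and 1.18 TPM in CTRL HSD libraries, against 2.92, 2.94, 4.47 and 2.52 TPM in CTRL chow libraries, a fall in CTRL (edgeR log2 fold change -0.92 ± 0.21, adjusted p = 0.0246) beside the rise in labelled KO (interaction 3.03 ± 0.30, adjusted p = 0.000178). Per3 was at 3.36, 5.65, 5.37 and 4.77 TPM in CTRL HSD libraries, against 13.6, 8.73, 15.1 and 8.25 TPM in CTRL chow libraries (edgeR log2 fold change -1.09 ± 0.28, adjusted p = 0.0392), and the interaction was 2.38 ± 0.39, adjusted p = 0.0148. Arntl was at 10.6, 8.0, 5.72 and 6.46 TPM in CTRL HSD libraries, against 6.39, 8.02, 4.93 and 7.09 TPM in CTRL chow libraries, overlapping (interaction -2.48 ± 0.36, adjusted p = 0.00603), and Npas2 at 3.49, 1.6, 2.61 and 2.02 TPM in CTRL HSD libraries, against 1.21, 1.42, 0.689 and 1.66 TPM in CTRL chow libraries (interaction -2.95 ± 0.53, adjusted p = 0.0203). Tef (1.74 ± 0.25, adjusted p = 0.00633), Dbp (2.86 ± 0.60, adjusted p = 0.0476) and Nr1d2 (1.23 ± 0.25, adjusted p = 0.0338) were the others in edgeR's interaction test. The clock score was -1.65 to 0.080 in labelled-KO chow libraries and -0.52 to 1.45 in CTRL chow libraries, which overlap, and the difference was not tested.

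Of the lipid genes Gpam differed, being at 65.3, 76, 88.5 and 72.3 TPM in CTRL HSD libraries, against 136, 129.8, 75.6 and 125 TPM in CTRL chow libraries with a CTRL log2 fold change of -0.47 ± 0.17, adjusted p = 0.111 in edgeR and an interaction of 1.52 ± 0.24, adjusted p = 0.013. Ehhadh (1.13 ± 0.21, adjusted p = 0.022), Slc5a6 (1.94 ± 0.31, adjusted p = 0.0148) and Pard6g (2.61 ± 0.32, adjusted p = 0.0018) were higher on HSD in labelled KO and differed from CTRL in the edgeR interaction. Cldn1 was at 4.74, 4.1, 1.4 and 8.46 TPM in CTRL HSD libraries, against 1.27, 1.85, 0.823 and 2.09 TPM in CTRL chow libraries (interaction -4.30 ± 0.80, adjusted p = 0.0247). Bcas1, a gene of myelinating cells, was lower on HSD in labelled KO (-1.75 ± 0.45) and higher in CTRL (edgeR log2 fold change 1.88 ± 0.44, adjusted p = 0.028), with an interaction of -3.63 ± 0.63, adjusted p = 0.0182. C1qtnf3 (CTRP3), an adipokine, was at 1.37, 0.696, 0.619 and 1.03 TPM in the HSD libraries, against 5.51, 3.28, 2.73 and 5.09 TPM in the chow libraries, without overlap. C1qtnf3 had a log2 fold change of -1.98 ± 0.35 in edgeR (adjusted p = 0.00358). In CTRL C1qtnf3 was at 3.15, 3.5, 1.57 and 2.44 TPM in CTRL HSD libraries, against 1.51, 2.19, 1.37 and 2.06 TPM in CTRL chow libraries (interaction -2.70 ± 0.48, adjusted p = 0.0203). Wnt11 had an interaction of -2.47 ± 0.49, adjusted p = 0.0307, Zyg11a 3.55 ± 0.64, adjusted p = 0.0205 and Fhl5 2.84 ± 0.60, adjusted p = 0.04 in edgeR. Spp1 (osteopontin), a gene of lipid-associated macrophages, had the largest fitted interaction, but labelled-KO HSD replicate 2 gave 70 of its 87 estimated counts on HSD and the CTRL HSD libraries held 2 in all, so its fitted size depends on the prior count. Interaction calls ran from 17 without CTRL HSD replicate 1 to 276 without CTRL HSD replicate 3, and were 46 without CTRL chow replicates 2 and 4, whose levels rose with transcript length (slopes of 0.21 and 0.13 per log2 length unit, against -0.084 to 0.011 in the labelled-KO libraries). They were 20 without CTRL chow replicate 1, 25 without CTRL HSD replicate 2, 43 without CTRL HSD replicate 4 and 48 without CTRL chow replicate 4. They were 32 without labelled-KO chow replicate 1 or 4, 23 without chow replicate 2, 221 without chow replicate 3 and 21 without HSD replicate 3.

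**Figure D5:**
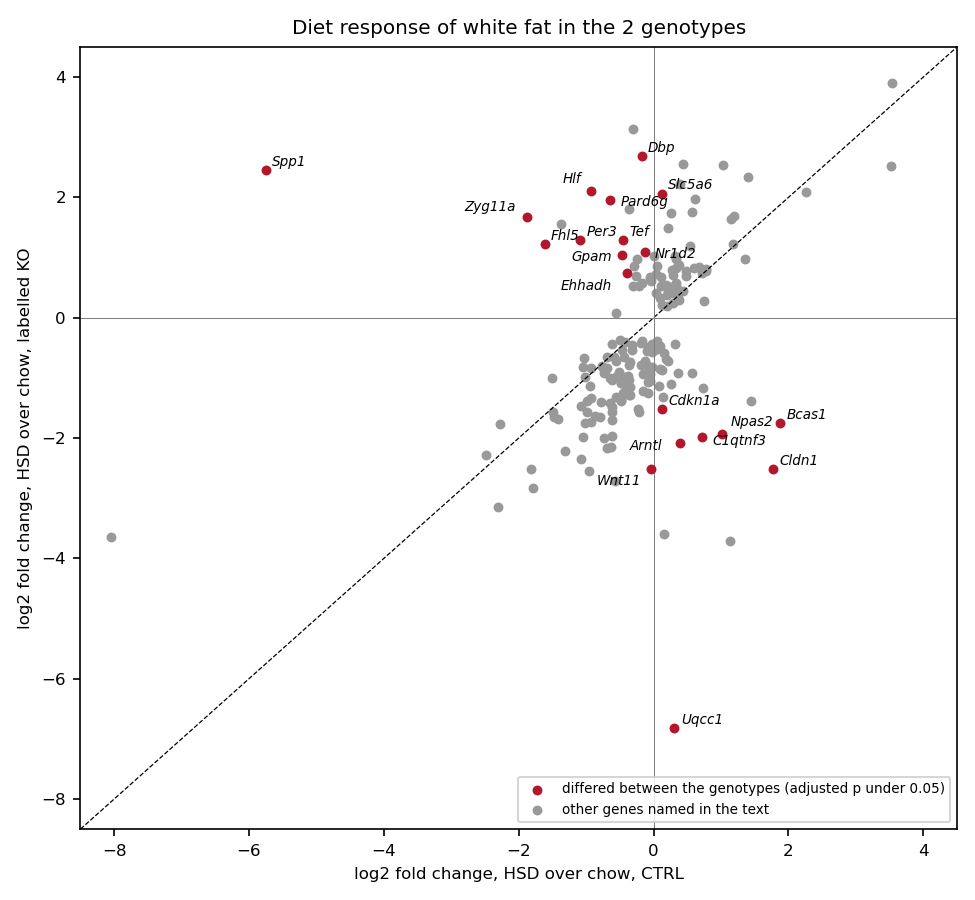
Log2 fold change of HSD over chow in labelled-KO white fat (vertical axis) and CTRL white fat (horizontal axis) for the genes named in the text that were tested. Red points are the named genes whose diet effect differed between the genotypes in edgeR's interaction test at an adjusted p under 0.05, and the dashed line marks equal effects. Hlf, Per3 and Gpam lie above 0 in labelled KO and below 0 in CTRL, and Arntl and Cldn1 the other way round.

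In other tissues of labelled-KO mice edgeR called, between the same diets, 1 of 11259 genes in liver (0.00888%), 17 of 12134 in heart (0.140%) and 1 of 12092 in muscle (0.00827%). Some of these were clock genes. Arntl averaged 1.68 ± 0.332 TPM on HSD and 6.5 ± 1.27 TPM on chow (SD, n = 4 each; edgeR log2 fold change -1.89 ± 0.23, adjusted p = 0.00265) in heart. In muscle Arntl averaged 6.55 ± 1.54 TPM on HSD and 15.7 ± 1.47 TPM on chow (SD, n = 4 each; edgeR log2 fold change -1.24 ± 0.18, adjusted p = 0.0206). In liver it averaged 0.946 ± 0.408 TPM on HSD and 2.52 ± 0.548 TPM on chow (SD, n = 4 each; edgeR log2 fold change -1.59 ± 0.46, adjusted p = 0.219). Of the 15 clock genes called in white fat, 13 of 15 tested in heart, 12 of 14 in muscle and 12 of 14 in liver had the same direction, with 3, 1 and 0 of them called.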

How the data were processed

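RNA-seq of 64 libraries from 4 tissues was available, and the 16 white adipose tissue libraries (4 groups of 4) were fitted together. The authors deposited, per gene, estimated counts and TPM in separate tables. Reads were quantified with kallisto against GRCm38, per the submitters' processing notes. Its version and the annotation release were not given in the sources used here. TPM of the 19521 genes in the tables summed to 819291 to 844600 in the 8 labelled-KO libraries, so part of each library is not analysed here.

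The estimated counts, rounded to integers, were filtered with filterByExpr (minimum count 10), leaving 13255 genes. They were scaled by TMM and tested with edgeR 4.0.16 (R 4.3.3), quasi-likelihood test, Benjamini-Hochberg adjustment over all genes tested. Contrasts were HSD against chow in labelled KO and in CTRL, and their difference (interaction). Alternatives used limma 3.58.1 on log2(TPM + pseudocount) and DESeq2 1.42.0. The pipeline was tested on simulated data with known changes. No replicates matched within sampling noise (lowest chi-square per degree of freedom 5.914 between replicates). Named genes were the 12 largest rises and 12 largest falls with mean log2 CPM of at least 1, separate TPM ranges and an adjusted p under 0.05, the 5 largest interactions each way, the pyruvate kinases, called members of the gene lists, up to 4 uncalled members a list and all clock genes. Predicted and clone-named genes, immunoglobulin and T cell receptor segments and Mup and Serpina1 copies were not named. The members and lists were chosen with earlier results of these data known, and a few further genes after their values were seen. Single values of a few genes that the rule names are not reported here. Of the listed genes 13 had no row. Coordinates are those of GENCODE genes on GRCm38. Estimated counts cover between 5724366 and 11927089 per white fat library, and low genes carry wide counting error.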

Additional observations from a re-analysis of the deposited data

Results flagged for a closer look

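In 23 of 408 groups of 4 labelled-KO libraries, 1 library stood apart from the other 3 by more of the group's range than Dixon's critical value for 4 values. For independent groups of normally distributed values about 1 in 20 would be flagged. These groups come from the same 8 libraries and are not independent, so their number was not tested against chance. HSD replicate 1 stood apart for Uqcc1 (0.47 TPM), P3h1 (15.3 TPM), Timp1 (8.78 TPM) and Esam (76.2 TPM). HSD replicate 2 stood apart for Spp1 (9.62 TPM), Col12a1 (0.524 TPM), Plod2 (6.74 TPM) and Lum (43.5 TPM). HSD replicate 4 stood apart for Eln (18.6 TPM), Ctsk (16.5 TPM), Fads1 (76.4 TPM), Slc2a5 (2.07 TPM), Elovl6 (102 TPM) and Hspb1 (43.3 TPM). Among chow libraries, replicate 3 stood apart for Pklr (0.869 TPM), Tmem56 (0.933 TPM), Pard6g (5.76 TPM), Col1a2 (176 TPM), Pcolce (61.8 TPM), Cyp2e1 (2369 TPM) and Alb (272 TPM), replicate 1 for Uqcc1 (9.15 TPM) and replicate 2 for Itgax (2.76 TPM).

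For 20 named genes the diet effect differed between labelled KO and CTRL in edgeR's interaction test at an adjusted p under 0.05. Positive log2 interactions, a higher diet effect in labelled KO, were 2.38 for Per3, 1.23 for Nr1d2, 2.86 for Dbp, 1.74 for Tef, 3.03 for Hlf, 1.94 for Slc5a6, 2.61 for Pard6g, 8.21 for Spp1, 3.55 for Zyg11a, 2.84 for Fhl5, 1.52 for Gpam and 1.13 for Ehhadh. Negative ones were -2.48 for Arntl, -2.95 for Npas2, -7.12 for Uqcc1, -4.30 for Cldn1, -2.47 for Wnt11, -3.63 for Bcas1, -2.70 for C1qtnf3 and -1.64 for Cdkn1a. The clock score of the 4 groups, given with the clock genes, moved with these contrasts, and its part was not tested beyond the covariate fit.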

How the results depend on the processing

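Of 846 labelled-KO calls, edgeR with DESeq2 size factors gave 858, no filter 658, limma on log2(TPM + 1) 1119, limma on log2(TPM + 0.1) 1065, a length correction 992 and the 8 libraries alone 620. DESeq2's Wald test gave 1404 and the clock score as covariate 0, with 669 genes at an unadjusted p under 0.05 in edgeR and no other tool run. Leaving out 1 library gave 358 to 992. The 76 interaction calls became 519 with DESeq2, 43 and 46 with limma at pseudocounts of 1 and 0.1, 0 with the clock score (637 at an unadjusted p under 0.05 in edgeR) and 17 to 276 with 1 library left out. The 632 CTRL calls became 420 with no filter, 1218 with DESeq2, 1448 (128 rises, 1320 falls) and 1412 with limma, 307 with the clock score, 202 with the length correction, 388 with its 8 libraries alone and 94 to 1024 with 1 library left out. Chosen after seeing the data, leaving out labelled-KO chow replicates 1 and 2 gave 264 calls, and leaving out CTRL chow replicates 2 and 4 gave 46 interaction and 9 CTRL calls.

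Of 180 named genes called, 17 changed sign with the clock score as covariate and none under the other alternatives. Of the 19 tested but not called, 7 changed sign with it (Pklr, Per1, Per2, Cry1, Adipoq, Fabp4 and Mki67) and 3 (Per1, Cry1 and Alb) with 1 or 2 libraries left out. For the 17 the log2 fold changes with the score were -0.45 for Per3, -0.79 for Ciart, -0.21 for Rassf6, -0.065 for Lpin1, -0.34 for Klf9, -0.29 for Fkbp5, 0.16 for Nfil3, 0.70 for Bcas1, 0.77 for Tpx2, 0.29 for Ccna2, 0.49 for Hmgcs1, 0.61 for Krt14, 0.012 for Plk2, 0.23 for Col8a1, 0.40 for Col14a1, 0.023 for Pdia6 and 0.037 for Calr. The score itself holds Per3 and Ciart and separates the diets in labelled KO, so this fit leaves little of the diet contrast, and the cause of each change was not tested. Of the 180, 79 held without any 1 library. No paired analysis was possible because the groups compared share no number in the labels of a tissue, and replicate numbers only name libraries in accession order. At these depths genes of a few counts, such as Slc2a5, Rorb and Spp1, rest on 1 or 2 libraries or have wide errors.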

Other observations

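Some chaperones of the secretory pathway were lower on HSD beside the matrix genes. Of 19 unfolded protein response genes 3 fell and none rose, with a median log2 fold change of -0.37, where 3.68% of all genes fell. TPM ranges lay wholly below those of chow for 12, beside 13.5% of all genes. The protein disulfide isomerase Pdia6 was at 146, 132, 130.5 and 94.3 TPM in the HSD libraries, against 182, 191, 185 and 191 TPM in the chow libraries, without overlap. Pdia6 had a log2 fold change of -0.44 ± 0.11 in edgeR (adjusted p = 0.0304). The lectin chaperone Calr was at -0.39 ± 0.11 and Edem1, which sorts misfolded glycoproteins for degradation, at -0.37 ± 0.10. Pdia6 lost its call without chow replicate 1 or 2 or 4 or HSD replicate 2 or 3 or 4 (adjusted p up to 0.0834). Calr lost its call without chow replicate 1 or 2 or 3 or 4 or HSD replicate 2 or 3 or 4 (adjusted p up to 0.127). Edem1 lost its call without chow replicate 2 or 3 or HSD replicate 1 or 2 or 3 (adjusted p up to 0.0963). Of 16 heat shock genes 2 fell, the small heat shock proteins Hspb1 (-0.87 ± 0.23) and Cryab (-0.86 ± 0.20), and of 15 complement and coagulation genes 2 fell, complement factor B (Cfb, -0.54 ± 0.12) and the C1 inhibitor (Serping1, -0.53 ± 0.15). Asns, asparagine synthetase, was the only rise among 15 genes of the integrated stress response (0.58 ± 0.13). Hspb1 lost its call without chow replicate 1 or 2 or 4 or HSD replicate 2 (adjusted p up to 0.107). Cryab lost its call without chow replicate 1 or 2 or HSD replicate 2 or 3 (adjusted p up to 0.074). Cfb lost its call without chow replicate 2 or HSD replicate 3 (adjusted p up to 0.0566). Serping1 lost its call without chow replicate 1 or 2 or 4 or HSD replicate 1 or 2 or 3 or 4 (adjusted p up to 0.132). Asns lost its call without chow replicate 2 (adjusted p up to 0.0595).

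No interferon-stimulated gene (15 tested), immediate early gene (17), chromatin regulator (22) or cytosolic ribosomal protein gene (36) was called in edgeR. In these lists 5, 1, 7 and 1 genes had an unadjusted p under 0.05 in edgeR, DESeq2 called 1, 0, 3 and 1, and limma called 1 immediate early gene and none of the others.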
